A study of Rattus norvegicus with 6 samples.

Results

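The genes described here are 10 enzymes that make, cleave or phosphorylate the core of sphingolipids: the ceramidases Acer2, Acer3, Asah1 and Asah2, the ceramide synthases Cers2, Cers4 and Cers5, the sphingosine kinases Sphk1 and Sphk2, and the sphingosine 1-phosphate lyase Sgpl1. They were taken by name from a table of 27321 features, and 9 of the 10 had a row of their own, with Cers4 and Cers5 under their older names Lass4 and Lass5. They were selected on the normalized counts of the same 6 libraries, with the difference between STZ and control rats and the wide spread of Acer2 among STZ rats already known. Their levels and differences are therefore a description and carry no test.

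The tissue was the IM tip, the terminal part of the kidney inner medulla, of male Sprague-Dawley rats aged 3 months. In 3 rats diabetes was induced by a tail vein dose of 62.5 mg/kg streptozotocin (STZ), which kills pancreatic beta cells, and 3 control rats were given vehicle. RNA was taken at day 15, 1 library was sequenced per rat, and the comparison asks which transcripts differ in the diabetic IM tip. Reads on genes numbered from 3412311 in control library 3 to 5575171 in control library 2, and all 3 STZ libraries lay between them. Features with a read numbered 18268, 20881 and 20453 in control libraries 1, 2 and 3. In STZ libraries 1, 2 and 3 they numbered 18212, 19885 and 21064. Library 1 of each group, where Acer2 was highest, thus had the fewest. The part of this in the level of Acer2 was not tested. The 3 control libraries shared lane 3, whereas lanes 7, 6 and 8 held the STZ libraries, and in any difference given here the lane cannot be told apart from the condition.

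Ceramide is a sphingoid base joined to a fatty acid. Ceramide synthases form that bond and ceramidases break it, which releases sphingosine. Sphingosine kinases turn sphingosine into the signalling lipid sphingosine 1-phosphate, and the lyase Sgpl1 cleaves that lipid irreversibly, the exit from the pathway. The ceramidases differ in the pH at which they work and in their place in the cell, and the ceramide synthases differ in the length of the fatty acid they attach.

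Acer2 is the alkaline ceramidase of the Golgi. It lies on chromosome 5 of the rn4 genome build, at chr5:106185778-106237588. Its level was 2137, 732 and 603 normalized counts in control libraries 1, 2 and 3, and 18367, 2876 and 1761 in STZ libraries 1, 2 and 3. A normalized count is the number of reads on a gene divided by a size factor of the library. STZ library 1 was far above every other library, while STZ library 3 lay below control library 1, so the groups overlapped. The highest STZ value was 10.4 times the lowest STZ value, and the highest control value was 3.54 times the lowest control value.

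The reads behind these levels were many. Acer2 had 2085, 960 and 542 reads in the control libraries and 19781, 2908 and 1754 in the STZ libraries. It took 0.395% of all reads on genes in STZ library 1, against 0.065% and 0.0443% in STZ libraries 2 and 3 and at most 0.0448% in a control library. Counting error is small at such numbers, although the cDNA was amplified by PCR and reads are not independent molecules.

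Mean levels of Acer2 were 1158 ± 851 normalized counts for control and 7668 ± 9283 for STZ rats (SD, n = 3 each). Relative to the control mean, the level was 15.9-fold, 2.48-fold and 1.52-fold in STZ libraries 1, 2 and 3. On the log2(normalized count + 1) scale the difference of STZ from control was 2.21 (SE 0.73). Without STZ library 1 it was 1.20 (SE 0.44), so that library alone moved it by more than any other library did. With each other library left out in turn it ran from 1.86 to 2.89, the lowest being without control library 3 and the highest without STZ library 3.

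The spread of Acer2 was set against that of the 13486 features whose mean reached 5 normalized counts over the 6 libraries. The SD of its log2 levels was 1.78 among STZ libraries, above that of 98.6% of these features, and 0.98 among control libraries, above 91.2%. The corresponding medians over all 13486 features were 0.31 and 0.34. Among the 1527 features that averaged 500 normalized counts or more, Acer2 had the second highest SD within STZ and rank 10 within control. The wide STZ spread was known when Acer2 was chosen, so its rank is no separate finding. The feature above it within STZ, named after its values were seen, was Ctse, the protease cathepsin E, with 192, 2529 and 284 normalized counts in STZ libraries 1, 2 and 3. There STZ library 2 was the high one, not STZ library 1, and Ctse reached a mean of 500 through that library alone, with at most 39.7 in control.

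None of the neighbours of Acer2 on chromosome 5 came near its 15.9-fold level in STZ library 1. Rps6, a ribosomal protein gene that ends 17276 bases before Acer2, had 5828, 5978 and 6278 normalized counts in STZ libraries 1, 2 and 3, and between 4971 and 7043 in control. F1LXS1_RAT, the next feature on that side, had 190, 131 and 153 in STZ and between 109 and 134 in control, so that STZ library 1 was 1.52-fold over the control mean. On the other side the nearest feature, ENSRNOG00000032141, had at most 15.6 normalized counts in any library, and Mllt3 had between 75.9 and 109. By limma the adjusted p of these 4 neighbours ran from 0.554 to 0.954.

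The annotated locus of Slc24a2, a sodium, potassium and calcium exchanger, spans Acer2. Slc24a2 had between 0.93 and 4.10 normalized counts in each library, and the table's features that join Acer2 to another gene had at most 1 read. The use of strand in the counting was not stated in the sources used here. Reads of overlapping genes on opposite strands therefore could not be told apart.

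The tested features most like Acer2 were found by the root mean square difference of log2 levels over the 6 libraries, each feature relative to its own control mean. Among the 5 most like it were Pkib (0.63), a mitochondrial feature that spans NU2M_RAT to ATP6_RAT (0.82), Tbx19 (0.83) and Plaur (0.84). Pkib, an inhibitor of protein kinase A, had 10.3, 3.05 and 2.23 normalized counts in control libraries 1, 2 and 3 and 43.6, 21.8 and 16.1 in STZ libraries 1, 2 and 3. Its values followed the same order as those of Acer2 within each group, but without overlap between the groups. These 4 were highest in STZ library 1, and each had far fewer reads than Acer2. The mitochondrial feature, Tbx19 and Plaur had control means of 3.61, 2.31 and 1.82 normalized counts, so they reached the minimum mean of 5 only through the STZ libraries, and their control values rest on 0 to 6 reads. No p was computed for likeness.

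Acer3 is another alkaline ceramidase. At chr1:155455465-155509236, it had 73.8, 56.4 and 53.4 normalized counts in control libraries 1, 2 and 3, and 84.5, 48.5 and 65.3 in STZ libraries 1, 2 and 3. The groups overlapped. The log2 difference was 0.09 (SE 0.26), and its sign turned without STZ library 1 (−0.11) and without control library 3 (−0.003). STZ library 1 was the highest of the 6 libraries for Acer3 too, but by 1.38-fold over the control mean where Acer2 was 15.9-fold.

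Asah1 is the acid ceramidase of lysosomes. At chr16:54279252-54311083, it had 1102, 1202 and 824 normalized counts in control libraries 1, 2 and 3, and 1655, 1310 and 1232 in STZ libraries 1, 2 and 3. The STZ values were all above the control values, with means of 1043 ± 196 and 1399 ± 225 (SD, n = 3 each). The gap was narrow, from 1202 in control library 2 to 1232 in STZ library 3. The log2 difference was 0.43 (SE 0.21), between 0.27 and 0.54 with a single library left out.

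Asah2 is the neutral ceramidase, an enzyme of the plasma membrane. At chr1:236000769-236072477, it had 6.15, 9.92 and 13.4 normalized counts in control libraries 1, 2 and 3, and 16.7, 26.7 and 21.1 in STZ libraries 1, 2 and 3. The groups did not overlap. These levels rested on 6, 13 and 12 reads in control and 18, 27 and 21 in STZ. The log2 difference was 1.09 (SE 0.40), and the SE rests on few reads.

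Cers2 attaches very long fatty acids and is the ceramide synthase best known from kidney and liver. It had no row of its own: its older name Lass2 occurs in a feature merged with Setdb1, a histone methyltransferase gene, at chr2:190224016-190264278. That feature had 3402, 2825 and 2644 normalized counts in control libraries 1, 2 and 3, and 4227, 4416 and 3680 in STZ libraries 1, 2 and 3. All STZ values lay above all control values, with a log2 difference of 0.48 (SE 0.20). How the reads divide between Cers2 and Setdb1 is unknown, so no value for Cers2 itself is given.

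Cers4 and Cers5 lay lower in STZ rats on average, with overlap. Cers4 at chr12:1256395-1291578 had 27.7, 25.2 and 18.9 normalized counts in control libraries 1, 2 and 3, and 15.8, 13.8 and 22.1 in STZ libraries 1, 2 and 3. STZ library 3 was above control library 3. The log2 difference of Cers4 was −0.46 (SE 0.33). Cers5, which attaches palmitate, lies at chr7:138475150-138513647 and had 91.2, 108 and 135 in control and 85.4, 97.9 and 114 in STZ. The log2 difference of Cers5 was −0.15 (SE 0.22), smaller than its SE, and ran from −0.29 without control library 1 to −0.007 without control library 3.

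Of the sphingosine kinases, Sphk1 at chr10:106642671-106645566 had 17.4, 15.3 and 27.8 normalized counts in control libraries 1, 2 and 3, and 13.9, 15.8 and 22.1 in STZ libraries 1, 2 and 3. The log2 difference was −0.19 (SE 0.36), and it ran from −0.37 without STZ library 3 to 0.05 without control library 3. Sphk2 at chr1:96178615-96182920 had 51.3, 49.6 and 45.6 in control and 41.8, 28.7 and 55.2 in STZ. The 3 control values of Sphk2 lay close together, with an SD of log2 levels above that of only 4.75% of the features tested, while its STZ values spread on both sides of them. The log2 difference of Sphk2 was −0.26 (SE 0.28), from −0.48 without STZ library 3 to −0.02 without STZ library 2.

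Sgpl1, the lyase, lies at chr20:28459733-28503991. It had 104, 91.5 and 73.5 normalized counts in control libraries 1, 2 and 3, and 65.9, 73.2 and 85.3 in STZ libraries 1, 2 and 3. The groups overlapped, and the log2 difference was −0.25 (SE 0.22), from −0.38 without control library 3 to −0.14 without control library 1. STZ library 1, the highest library for Acer2, was the lowest for Sgpl1.

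**Figure D1:**
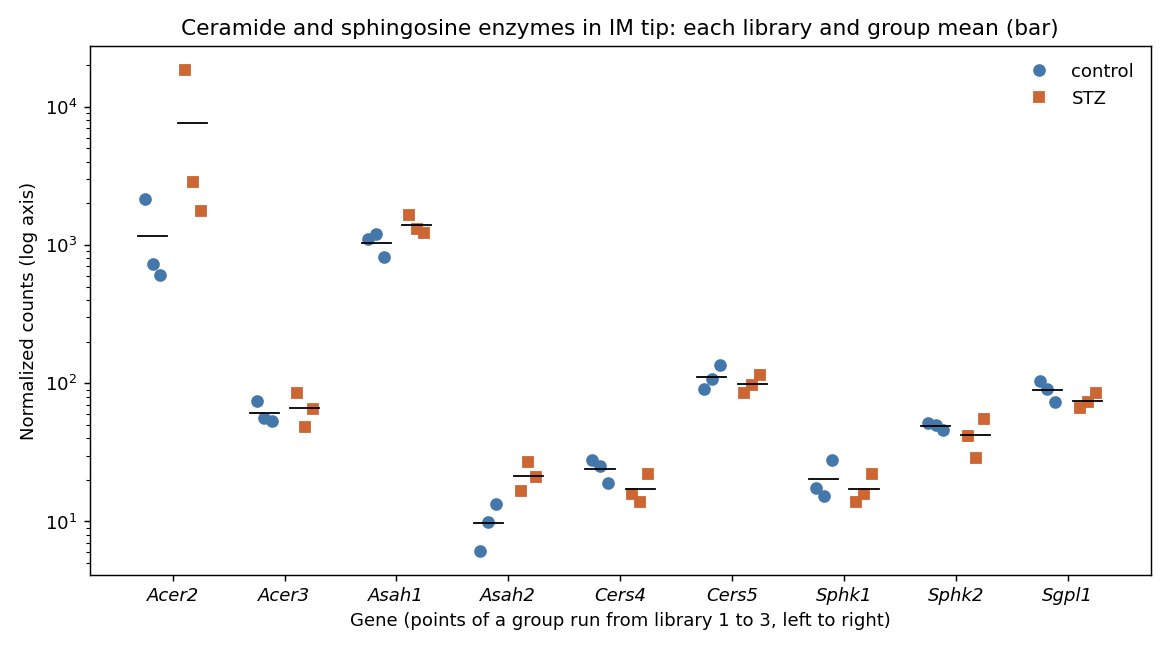
Normalized counts (log axis) of the 9 enzymes with a row of their own, in each of 3 control libraries (circles) and 3 STZ libraries (squares), with a bar at each group mean. Acer2 runs from 1761 to 18367 among STZ libraries, and only for Asah1 and Asah2 do all STZ points lie above all control points.

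All 9 enzymes found averaged over 5 normalized counts and had more than 3 reads in each library. By limma, 0 of the 9 had an adjusted p under 0.05, where 2.1% of the 13486 features tested did. At an unadjusted p under 0.05 there were 2, beside 14.7% of all features, and on reads recovered from the values edgeR gave 0 of 9 after adjustment and DESeq2 0 of the 6 for which it gave an adjusted p. Acer2 did pass with no filter on low values. The paper, by DESeq on a smaller set of genes, listed Acer2 among its top up-regulated genes. In 2 of the 9, Asah1 and Asah2, the groups did not overlap, which held for 20.3% of the features tested. Since the genes were picked with these values known, nothing is read from these counts. The median log2 difference of the 9 was −0.15, against 0.01 over all features tested. Apart from Acer2, the differences ran from −0.46 for Cers4 to 1.09 for Asah2. Levels were not compared between genes, because transcript lengths were not used here.

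Upstream sequence is shown for Acer2, whose levels varied most. RefSeq promoters, windows of 300 bases around a gene's start on the GRCr8 build, were matched for 9 of the 10 enzymes. The stretch below lies before the annotated gene, at chr5:106437598-106437772 on the + strand, and is 175 bases long. Capitals mark the GC box GGGCGG, searched on both strands.
Acer2: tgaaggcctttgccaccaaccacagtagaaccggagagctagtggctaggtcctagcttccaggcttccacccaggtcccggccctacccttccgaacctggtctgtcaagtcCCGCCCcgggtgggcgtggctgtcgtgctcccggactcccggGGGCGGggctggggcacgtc

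The full 300-base window of Acer2 holds 3 GC boxes, no CCAAT and no TATAAA. Of the 33469 promoters, 33.1% hold a GC box, 37.5% a CCAAT and 14.2% a TATAAA. Of the 9 enzymes matched, 7 had a GC box in at least 1 promoter, 5 a CCAAT and 1, Sphk1, a TATAAA. The CCAAT and the TATAAA were also searched on both strands, and Sphk1 has 3 promoters in the table. These letter matches are a description only.

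Other genes of sphingolipid metabolism were taken from a list of 66, of which 48 had a row of their own and 43 were tested by limma over the whole table. Gla alone passed the adjusted p threshold of 0.05, with higher levels in STZ rats, and no gene passed with lower levels. Gla encodes alpha-galactosidase A, the lysosomal enzyme that removes the terminal galactose of globotriaosylceramide. In control libraries 1, 2 and 3 it had 907, 681 and 716 normalized counts, and in STZ libraries 1, 2 and 3 it had 1437, 1389 and 1417. The STZ values were close together and all above control, with means of 768 ± 122 and 1415 ± 24.5 (SD, n = 3 each), and its log2 fold change came to 0.89 (SE 0.18), with a limma adjusted p of 0.0341. Over the alternatives run, its adjusted p ran from 0.000157 with DESeq2 to 0.173 without control library 2. It was also over the threshold without the intensity trend (0.169), without control library 3 (0.0526), and without STZ library 1 (0.104), 2 (0.127) or 3 (0.0881), while the log2 fold change stayed between 0.81 and 1.02.

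The 1 call among 43 genes stands beside 2.1% of all features called in either direction and 1.17% called higher in STZ. At an unadjusted p under 0.05 there were 4 of the 43, fewer than the share of 14.7% over all features. The groups did not overlap in 8 of the 43, with 6 higher and 2 lower, beside 20.3% of all features. The median log2 fold change of the 43 was −0.05. Log2 fold changes were positive for 18 genes and negative for 25.

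A4galt makes globotriaosylceramide, the lipid that Gla breaks down. It had 25.6, 23.7 and 26.7 normalized counts in control libraries 1, 2 and 3, and 46.4, 49.5 and 68.3 in STZ libraries 1, 2 and 3. The groups did not overlap. The log2 fold change, 1.06 (SE 0.26), missed the threshold with a limma adjusted p of 0.0623. With a minimum mean of 20 in place of 5 the limma adjusted p was 0.0476. Over the other alternatives, apart from the replicate block given below, it ran from 0.0551 with DESeq2 to 0.219 without control library 2. The other genes of glycosphingolipid synthesis did not pass. B4galt5, a lactosylceramide synthase, was above control in all 3 STZ libraries, by 0.46 on the log2 scale (SE 0.31). Its limma adjusted p was 0.573, and its difference ran from 0.29 without STZ library 2 to 0.57 without STZ library 1. Ugt8, which makes galactosylceramide and had the most reads of this group, had 974 ± 229 and 1198 ± 175 normalized counts (SD, n = 3 each), with overlap.

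Among 8 tested genes of glycosphingolipid breakdown, only Gla passed. The groups also did not overlap for Glb1, the lysosomal beta-galactosidase, with a log2 fold change of 0.22 (SE 0.18), or for Hexa, the alpha subunit of beta-hexosaminidase, with −0.49 (SE 0.22). Their adjusted p values were 0.663 and 0.321 by limma. With a single library left out, Glb1 ran from 0.10 (without STZ library 2) to 0.30 (without STZ library 3). Hexa then ran from −0.69 (without control library 3) to −0.29 (without control library 2). Hexa had 967, 1300 and 744 normalized counts in control libraries 1, 2 and 3 and 732, 678 and 678 in STZ libraries 1, 2 and 3. Psap, the precursor of the saposins that help these enzymes, had the most reads of the group, with 9052 ± 1756 and 7567 ± 987 normalized counts (SD, n = 3 each) and overlap.

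None of 9 genes of de novo synthesis passed, and in none did the groups separate. Their adjusted p ran from 0.443 to 0.999 by limma, and none had an unadjusted p under 0.05. Degs2, the desaturase that also hydroxylates, had the most reads, with 2368 ± 271 normalized counts under control and 2399 ± 566 under STZ conditions (SD, n = 3 each) and a log2 fold change of −0.001 (SE 0.22). None of 8 genes of sphingomyelin synthesis and breakdown passed either, with adjusted p from 0.743 to 0.983 and none under 0.05 unadjusted. Smpdl3a had the most reads of these, with 722 normalized counts in STZ library 1 and from 410 to 440 in the other libraries. Its log2 fold change of 0.23 (SE 0.23) became −0.03 without STZ library 1, the library in which Acer2 was highest.

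Of 6 tested genes of sphingosine 1-phosphate turnover, export and signalling, none passed, and 1 had an unadjusted p under 0.05. Plpp3, a lipid phosphate phosphatase, had 752, 494 and 755 normalized counts in control libraries 1, 2 and 3 and 1171, 1042 and 769 in STZ libraries 1, 2 and 3. The groups did not overlap, by a small gap. Its log2 fold change, 0.58 (SE 0.23), did not pass (limma adjusted p = 0.261). The fold change ran from 0.38 without control library 2 to 0.75 without STZ library 3. The receptor gene S1pr2 had 3, 5 and 5 reads in control libraries 1, 2 and 3 and 1 read in each STZ library, without overlap, and was not tested because its mean was under 5. No fold change is given for it at that depth.

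Of 5 genes of ceramide transfer and phosphorylation, none passed and none had an unadjusted p under 0.05. Plekha8, which carries glucosylceramide, had 17.4 ± 4.25 and 25.6 ± 0.765 normalized counts (SD, n = 3 each) without overlap, and its log2 fold change, 0.56 (SE 0.31), did not pass (limma adjusted p = 0.451). Cptp, a ceramide 1-phosphate carrier, had the most reads, and its log2 fold change was 0.21 (SE 0.21). That value ran from 0.06 without control library 3 to 0.36 without control library 2. Naaa, an acid amidase related to Asah1, was the single other amidase found. It had 25.0 ± 3.74 and 17.6 ± 3.58 normalized counts without overlap, and its log2 fold change, −0.49 (SE 0.31), did not pass (limma adjusted p = 0.543).

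**Figure D2:**
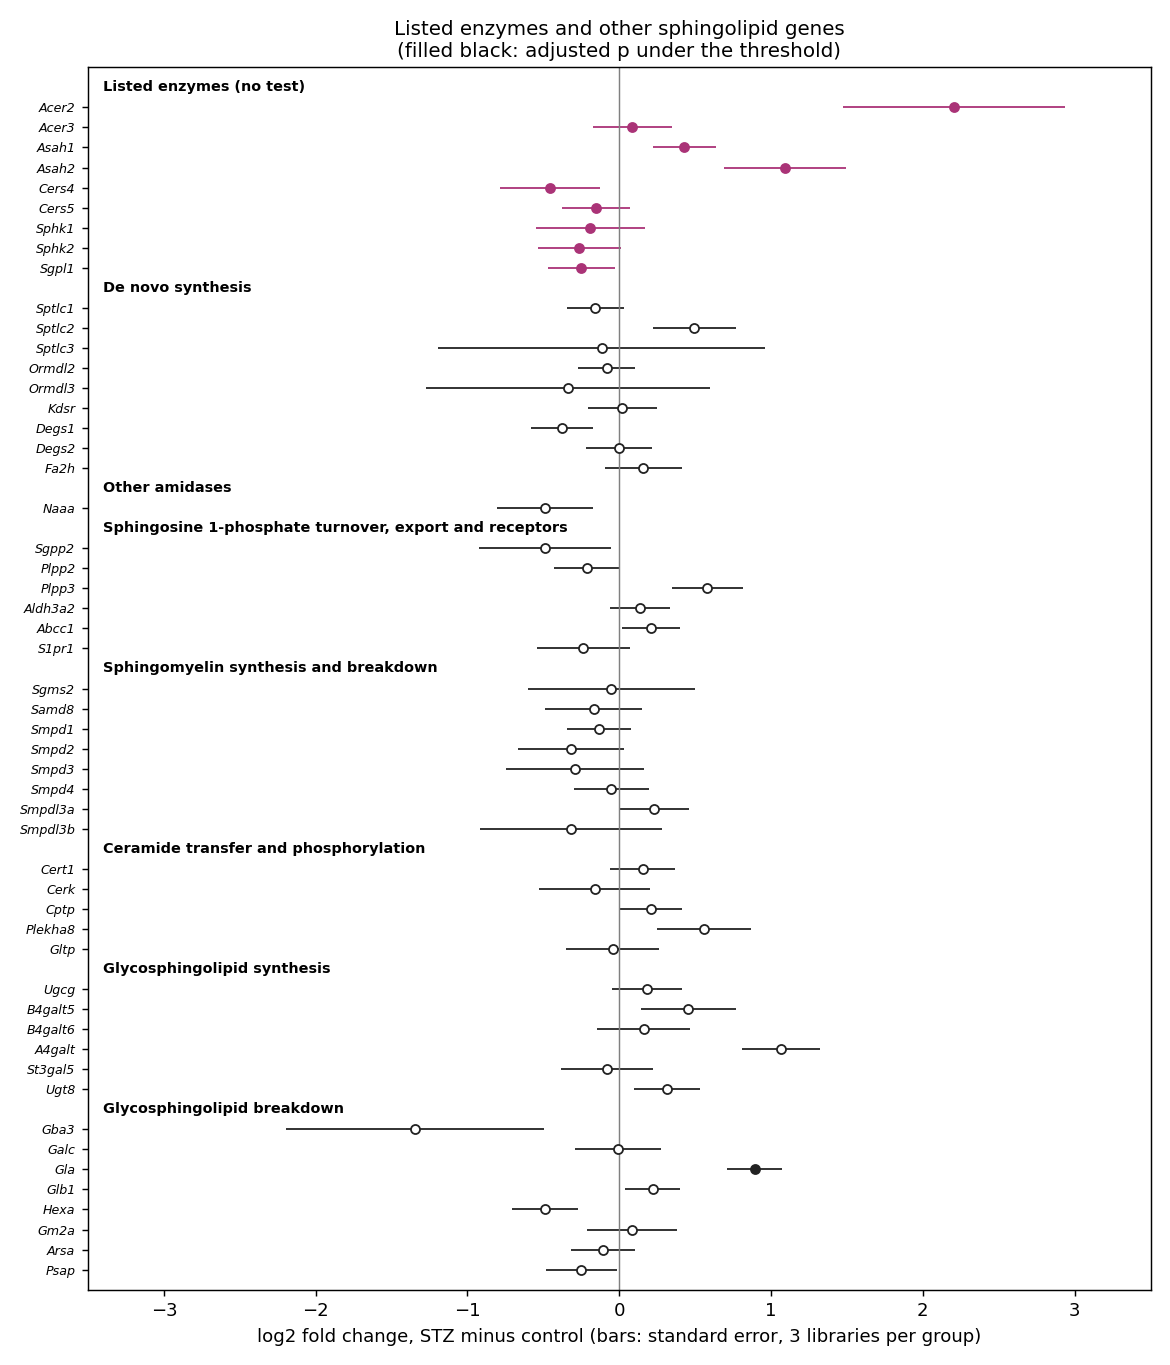
Log2 fold change of STZ over control with its SE (bars, 3 libraries per group) for the 9 enzymes with a row of their own (filled colored points, no test) and 43 other sphingolipid genes by role (black outlines; filled black where the limma adjusted p passed). Gla, at 0.89, is the single filled black point, and Acer2, at 2.21, has the widest bar among the 9 enzymes.

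In bulk tissue, fewer cells of a type and less RNA per cell cannot be told apart, so markers of the cell types of the IM tip were read beside these genes. No listed marker with a row of its own was at 0 in every library. By limma 10 of 40 markers tested passed, 3 higher and 7 lower, beside 2.1% of all features. The marker lists were chosen with earlier results of these data known, so this count is a description only. The summed level of 6 principal cell markers found of 7 was 18776, 17721 and 10822 normalized counts in control libraries 1, 2 and 3, and 35428, 18358 and 23331 in STZ libraries 1, 2 and 3. STZ library 1 was highest, as for Acer2, but STZ library 3 was above STZ library 2. None of the 6 passed after adjustment by limma, while 5 had an unadjusted p under 0.05, of which 4 had positive and 1 a negative log2 fold change. The negative one, Hsd11b2, named after its values were seen, inactivates glucocorticoids and had 57.4, 27.5 and 40.1 normalized counts in control libraries 1, 2 and 3 and 21.4, 22.8 and 22.1 in STZ libraries 1, 2 and 3. Aqp3, a basolateral water channel and the most abundant of them in reads, had 9786, 9784 and 4728 in control libraries 1, 2 and 3 and 22114, 9711 and 13926 in STZ libraries 1, 2 and 3.

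The summed levels of thick limb and intercalated cell markers were lower in every STZ library than in any control library, also without the most abundant gene of each list. The sum of proximal tubule markers was lower through Kap alone. Thick limb markers (3 found of 5) summed to between 1099 and 1886 normalized counts in control and between 210 and 597 in STZ. Umod and Egf fell, by log2 fold changes of −2.93 (SE 0.37) and −2.06 (SE 0.25), while Slc12a1, the most abundant of them in reads, had an adjusted p of 0.0732 by limma. Intercalated cell markers (5 found of 5) summed to between 475 and 775 in control and between 176 and 241 in STZ. Atp6v1b1 and Atp6v0d2, subunits of the proton pump, and Slc4a1, an anion exchanger and the most abundant of them in reads, fell, by log2 fold changes of −1.87, −1.61 and −1.10. Proximal tubule markers (4 found of 5) summed to between 189 and 346 in control and between 54.4 and 114 in STZ, and of these Kap, the most abundant, fell (log2 fold change −2.31, SE 0.38). Without Kap the proximal tubule sums were 14.4, 38.9 and 63.5 in control libraries 1, 2 and 3 and 17.6, 33.6 and 59.2 in STZ libraries 1, 2 and 3, and the groups overlapped for each of the other 3 markers found.

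Urothelial markers (5 found of 7) summed to between 85.4 and 133 normalized counts in control and between 440 and 517 in STZ. Upk3a, the most abundant, and Upk1b, which both encode uroplakins, rose by log2 fold changes of 3.30 (SE 0.25) and 1.25 (SE 0.28). Without Upk3a the urothelial sums lay between 57.2 and 84.1 in control and between 108 and 150 in STZ, and without Upk1b as well they overlapped, from 36.6 to 54.3 and from 49.2 to 74.3. Endothelial markers (5 found of 6) summed to between 6802 and 8839 in control and between 3558 and 3991 in STZ, and Emcn, the most abundant, fell (log2 fold change −1.38, SE 0.20). Without Emcn the endothelial sums overlapped, from 1618 to 2418 in control and 1521 to 1988 in STZ. The other 4 endothelial markers did not pass by limma and went different ways: Cdh5 and Tek lay lower without overlap, Tie1 lay higher without overlap (log2 fold change 0.55, SE 0.23), and Pecam1 overlapped (log2 fold change 0.04, SE 0.27). These 4 are named after their values were seen. Among interstitial markers (6 found of 6), whose sums overlapped (7510 to 9086 in control, 4730 to 10856 in STZ), Pdgfra rose (log2 fold change 1.03, SE 0.21). The most abundant of these in reads was Dcn, and its log2 fold change was −0.37 (SE 0.33). Without Dcn and Pdgfra the sums overlapped, with 277 to 396 in control and 331 to 461 in STZ. No thin limb marker (3 found of 4) and no leukocyte marker (6 found of 6) passed by limma, and none of either list had an unadjusted p under 0.05. Aqp1, a water channel of the thin limb named after its values were seen, had 119, 95.4 and 79.0 normalized counts in control libraries 1, 2 and 3 and 74.3, 61.3 and 72.3 in STZ libraries 1, 2 and 3, without overlap. The leukocyte sums were between 275 and 460 normalized counts in control and between 358 and 451 in STZ, and the most abundant leukocyte marker in reads was Cd79b.

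Some marker calls were lost with a single library left out, while their log2 fold changes kept their sign. The log2 fold change then ran from −1.28 to −0.91 for Slc4a1, from 1.03 to 1.45 for Upk1b and from 0.86 to 1.21 for Pdgfra. The limma call of Slc4a1 was lost without any 1 of the 6 libraries, with adjusted p values of up to 0.107. Those of Upk1b and Pdgfra were lost without any 1 except control library 3, with adjusted p values of up to 0.204 and 0.173. Upk1b, at an adjusted p of 0.0489 by limma with all libraries, was also lost with equal library totals (0.0768) and with a minimum mean of 1 (0.0607). Atp6v0d2 had an adjusted p of 0.055 without STZ library 2, and Kap had 0.0539 without control library 2. Leaving out STZ library 2 or control library 2 left 6 markers called in each case. The part of the marker changes, and of the lane, in the levels of Gla, A4galt and the 10 enzymes was not tested.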

How the data were processed

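Reads were mapped by the authors with STAR 2.3.1t on rn4 (submitters' processing notes). They counted uniquely mapped reads per gene and scaled each library by a size factor from DESeq 1.16.0. The deposited signal is this normalized count. The counting program was not given in the sources used here. Every value was a whole multiple of a step per library (100.0% of values, tolerance 0.001), which gave the reads, at 0.763 to 1.11 normalized counts each.

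STZ and control libraries (3 each) were compared by limma (version 3.58.1, R 4.3.3) after a log2 transform with a pseudocount of 1. The prior variance had an intensity trend, over 13486 features with a mean of at least 5. This scale understates the change of low genes. P values were adjusted by Benjamini-Hochberg over all of them, with a threshold of 0.05. As alternatives, edgeR 4.0.16 and DESeq2 1.42.0 were run on the recovered reads (edgeR called 287 features), with other pseudocounts, filters and scalings, and without each library. The scripts were tested on simulated data.

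The members and lists were chosen with earlier results of these data known. Named are the 10 enzymes, other sphingolipid genes that passed or did not overlap or had the highest mean of their role, the 5 features most like Acer2, its 2 neighbours on each side, and of each marker list the most abundant gene, those that passed and those at 0. A feature like Acer2 and a thin limb marker are not reported here. Tables were made with Python 3.11.15 and pandas 2.3.3.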

Additional observations from a re-analysis of the deposited data

How the results depend on the processing

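The number of features called (283 by limma) became 599 with DESeq2 and 31 without the intensity trend, and between 88 (without STZ library 2) and 352 (without control library 3) with a single library left out. It was 182 without control library 1, 101 without control library 2, 141 without STZ library 1 and 163 without STZ library 3. Other sphingolipid genes called (1, Gla) became 0 without the trend and 2 with a minimum mean of 20, where A4galt was added, and ranged from 0 to 1 with a library left out. Marker genes called (10) became 1 without the trend, Upk3a, and ranged from 6 to 9 with a library left out. The alternatives for the marker count, and marker sums without the most abundant gene or those called, were added after seeing the data. Except for the libraries left out, the causes were not tested. The share of called features that were higher in STZ was 55.8%, and became 48.3% with equal library totals, 67.7% without the trend, and from 45.4% (without STZ library 1) to 61.5% (without control library 1) with a library left out.

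Replicate block: both groups carry the numbers 1, 2 and 3 but are different animals. Deviations of same-numbered libraries correlated with r = 0.395, −0.0612 and 0.323 (across 9315 features, which are not independent), and control library 2 correlated best with STZ library 1, so the numbers were not taken as pairs. With the number as a block, 561 features, 2 other sphingolipid genes (Gla and A4galt) and 11 markers were called. Of the 9 enzymes found, Acer2 was past the threshold under the block and with no filter on low values, from which nothing is read, since it was chosen on these values.

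The log2 difference of Acer2 kept its sign in all 16 alternatives, from 1.20 to 2.89, and those of Asah1, Cers4, Cers5, Sphk2 and Sgpl1 kept theirs too. Asah2 kept its sign in the 15 that included it. Acer3 changed sign in 2 and Sphk1 in 1. Asah2, Cers4 and Sphk1 rest on at most 33 reads per library, which limits their precision.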
